A study of Mus musculus with 7 samples.

Results

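The genes described here build the junctions and the surface barrier of stratified epithelia such as cornea, conjunctiva and skin. There are 42 of them among 52740 genes of a count table from mouse retinal pigment epithelium (RPE), the monolayer behind the photoreceptors. They were chosen by name as desmosome, cell envelope, mucin, claudin and epithelial regulator genes, without keratins, and the choice was made with the difference between LC3b-/- and WT in these libraries already known. That difference is therefore given below as a description of the genes, and it is no evidence for itself.

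Desmosomes are spot-like junctions in which desmosomal cadherins (desmogleins and desmocollins) join neighboring cells and the plaque proteins plakoglobin, plakophilins and desmoplakin tie them to keratin filaments. In the outer layers of a stratified epithelium, proteins such as involucrin, envoplakin, periplakin and the small proline-rich proteins are crosslinked beneath the plasma membrane into the cell envelope, and on wet surfaces membrane mucins cover the outermost cells. The program is run by epithelial transcription factors, of which p63 keeps the basal layer and grainyhead-like and ETS-family factors act in differentiation. RPE is a simple epithelium whose barrier rests on tight junctions, while the cornea and conjunctiva, a short distance away in the same eye, are stratified.

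Messenger RNA was measured in RPE of 4 WT mice (C57BL6/J; females F1, F2 and F3 and male M1) and 3 LC3b-/- mice (females F1 and F3 and male M), each 24 months old and each sequenced as 1 library, without pooling. LC3b-/- mice lack Map1lc3b, which encodes an autophagy protein, in every cell. They carry an allele (B6;129P2-Map1Lc3btm1Mrab/J) made in another strain, so strain background may differ with genotype. A number in the mouse names, whose meaning is not stated, is never shared by WT and LC3b-/-. Neither the strain background nor this number can be told apart from genotype. Within LC3b-/- the number also differs between the females and the male. Sex, mouse and number therefore cannot be told apart where LC3b-/- M is set against the LC3b-/- females. After removal of cornea, ciliary body and lens, sheets of RPE had been freed from the eyecups by hyaluronidase and then trypsin. Deposited estimated counts sum to between 24495952 and 35616134 per library. Levels are given as CPM, the counts scaled to library size with TMM factors, and log2 fold changes are those of LC3b-/- over WT, with their standard error (SE), from edgeR's quasi-likelihood fit of 16990 genes. Map1lc3b itself stood at 104 to 130 CPM in the WT libraries and at 6.76 to 8.33 CPM in the LC3b-/- libraries, as labelled.

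Library composition differed between mice. The 10 RPE markers were abundant everywhere, with summed levels of 31200 to 49203 CPM in WT and 13516 to 29215 CPM in LC3b-/-, except Best1, which stood at 0.861 to 1.71 CPM. In contrast, 14 keratins of the ocular surface, which are not among the 42 genes, summed to 1596 CPM in WT F1, 1376 in F2, 793 in F3 and 3669 in M1, and to 26448, 7589 and 4258 CPM in LC3b-/- F1, F3 and M. Below, WT values stand in that order (F1, F2, F3, M1), and so do LC3b-/- values (F1, F3, M). Krt18, which simple epithelia use, went the other way, with 513 to 875 CPM in WT and 329 to 508 CPM in LC3b-/-. It was the only 1 of the 14 with a negative log2 fold change. Krt8, at 163 to 287 CPM in WT and 188 to 241 CPM in LC3b-/-, had 0.09 (SE 0.23). In WT F3, Krt18 (606 CPM) and Krt8 (176 CPM) made up nearly all of the keratin sum of 793 CPM. No other keratin of the 14 exceeded 3.44 CPM (Krt15) in that library. The keratin sum therefore understates how low the other keratins were in WT F3. Krt7 and Krt19 had 4.04 (SE 1.30) and 4.85 (SE 1.06). The cornea-specific keratin Krt12 reached 786 CPM in WT M1 and 2313 CPM in LC3b-/- F1 but no more than 26.2 CPM in the other 5 libraries. Photoreceptor markers (10 genes) summed to between 95.8 CPM in LC3b-/- F1 and 20735 CPM in WT F2. Goblet cell markers (4 genes) summed to 0.412 to 1.99 CPM in WT and 1.71 to 8.07 CPM in LC3b-/-, with Muc5ac and Tff1 at no more than 1 count in any library. Lens markers (7 genes) summed to 18.9 to 22.9 CPM in WT and 12.2 to 16.7 CPM in LC3b-/-, with Cryba1 at 0 everywhere. Fibroblast and keratocyte markers (6 genes) summed to 297 to 1235 CPM in WT and 755 to 1639.7 CPM in LC3b-/-. Endothelial markers (5 genes) ran from 132 to 429.6 CPM in WT and 493 to 553 CPM in LC3b-/-, and macrophage markers (5 genes) from 316 to 429.7 and 178 to 379 CPM. The part of these differences in the results was not tested, and in RNA from bulk tissue fewer cells of a type and less RNA per cell cannot be told apart.

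Nearly all of the 42 genes were detected, and their levels moved over a wide range between mice. Muc16, a large membrane mucin, and Sprr1b, a small proline-rich envelope protein, had 0 counts in all 7 libraries, which allows a level of up to 0.0752 to 0.124 CPM (3 counts, counting error only). The other 40 genes passed the filter on low counts, of which Ivl had the lowest WT level per kb of transcript (0.0436 CPM). Ivl passed that filter only through its LC3b-/- libraries, as a gene can that is high in 1 group. Sprr1a, Muc21, Ovol1 and Aqp5 likewise had too few counts in WT to pass it without their LC3b-/- libraries. All of these except Aqp5 are among the 28 genes counted below, and their place there was not free of the filter. By log2 fold change, 39 of the 40 genes lay higher in LC3b-/-, from 1.27 for Gsta4 to 7.39 for Nccrp1, and Cldn1 lay lower. Their median was 3.45 against 0.01 over all genes tested. Every LC3b-/- library was above every WT library for 28 of the 40 genes, against 12.0% of all genes tested. The 12 others were Dsg1a, Dsc3, Pkp3, Perp, Cldn7, Cldn1, Aqp5, Aldh3a1, Gsta4, Esrp1, Itgb4 and Col17a1.

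None of the 40 genes passed edgeR's test at an adjusted p under 0.05 with a fold change of at least 1.5, where 0.124% of all genes passed it as higher. The lowest adjusted p among them was 0.0728, for Nccrp1. Without adjustment for the number of genes, 31 had p under 0.05 as higher (13.5% of all genes) and 1, Cldn1, as lower (10.6%). DESeq2, used as an alternative, called 22 higher (6.53% of the genes it tested) and 1, again Cldn1, lower (2.95%). These shares restate the contrast on which the genes were selected, and nothing is read from them. The heat map of CPM by library shows the levels of all 42 genes.

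**Figure D1:**
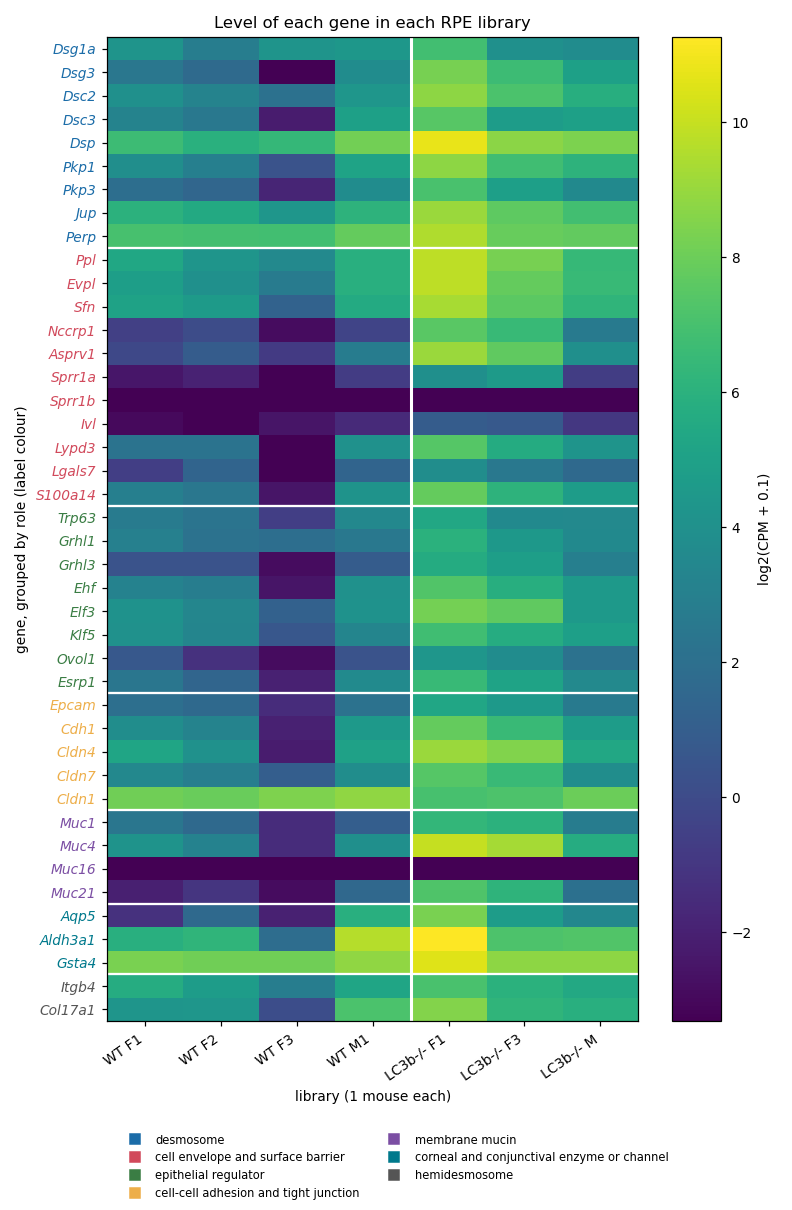
Levels of the 42 genes (rows, grouped by role and colored by it) in each of the 7 libraries (columns, 1 mouse each), as log2 of CPM plus 0.1; yellow is high and dark blue low. The column of LC3b-/- F1 is the brightest and that of WT F3 the darkest, Cldn1 is brighter in WT, and Muc16 and Sprr1b are dark in every column.

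Of the desmosome genes, all 9 had higher mean levels in LC3b-/- than in WT, with a median log2 fold change of 2.76. Dsp, which encodes the desmoplakin that binds keratin filaments, stood at 103, 60.9, 82.4 and 289 CPM in WT and at 1785, 429 and 333 CPM in LC3b-/-. All LC3b-/- values of Dsp lay above all WT values, although LC3b-/- M exceeded WT M1 by only 1.15 times (log2 fold change 2.67, SE 0.76).

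Log2 fold changes of the 4 desmosomal cadherins ran from 1.58 to 4.73. Dsg3, the desmoglein of basal layers and of mucosal epithelia, stood at 5.33, 3.15, 0 and 13.8 CPM in WT and at 308, 104 and 31.6 CPM in LC3b-/-. Dsc2, a broadly expressed desmocollin, stood at 16.2, 9.2, 4.23 and 20.5 CPM in WT and at 439, 139 and 57.5 CPM in LC3b-/- (log2 fold change 4.08, SE 0.79). Dsg1a, the desmoglein of upper layers of skin, behaved otherwise. It had 18.5, 7.25, 18.6 and 20.8 CPM in WT and 117, 15.8 and 13.5 CPM in LC3b-/-, so that its higher mean came from LC3b-/- F1 alone. Without that library its log2 fold change was -0.16, against 1.58 (SE 0.78) with it. Dsg1a shares up to 1795 bases at 98.3% identity with its neighbor Dsg1b, so reads could have been split between the copies.

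Dsc3, the desmocollin of basal layers, was likewise high in LC3b-/- F1 (178 CPM) and in the same range in LC3b-/- F3 and M (26.7 and 31.2 CPM) as in WT M1 (31.7 CPM). In WT F1, F2 and F3 Dsc3 had 8.98, 5.59 and 0.112 CPM, the last of which is 3 counts. Among plaque proteins, Pkp1, a plakophilin of stratified epithelia, had 1.24 to 35.1 CPM in WT and 68.6 to 444 CPM in LC3b-/-, without overlap. Pkp3, a plakophilin found in most epithelia, had 0.187 to 13.8 CPM in WT and 12.1 to 133 CPM in LC3b-/-, which overlap by WT M1. Jup, which encodes plakoglobin and serves adherens junctions too, had 20.5 to 68.9 CPM in WT and 116 to 548 CPM in LC3b-/-. Perp, a tetraspan desmosome protein and p63 target, was at 117 to 229 CPM in WT and 216 to 745 CPM in LC3b-/- and had the smallest log2 fold change of the group (1.43, SE 0.48).

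Of the genes of the cell envelope and the epithelial surface, all 10 that were tested had every LC3b-/- library above every WT library (median log2 fold change 3.81). The share over all genes tested was 12.0%. Sprr1a and Ivl are among these 10 and passed the filter on low counts only through their LC3b-/- libraries. The count also restates the contrast that chose the genes. The plakin scaffold of the envelope was present in all mice. Ppl (periplakin) stood at 41.1, 19.1, 11.4 and 59.7 CPM in WT and at 890, 305 and 86.1 CPM in LC3b-/-. Evpl (envoplakin), its binding partner, stood at 28.8, 15.8, 6.7 and 58.5 CPM in WT and at 904, 228 and 90.0 CPM in LC3b-/-. Both had the same order of libraries in each genotype, and their WT M1 and LC3b-/- M values lay within 1.54 times of each other.

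Among late barrier genes, Nccrp1 and Asprv1 had WT levels of 0.0374 to 6.92 CPM. Nccrp1, a relative of F-box proteins found in squamous epithelium, had 20, 23, 1 and 18 counts in WT (0.0374 to 0.953 CPM) and 4677, 3647 and 204 counts in LC3b-/- (188, 91.5 and 6.03 CPM). Its log2 fold change of 7.39 (SE 1.23) was the largest of the 40 genes. Asprv1, a retroviral-like aspartic protease that processes filaggrin in skin, had 0.79, 1.82, 0.449 and 6.92 CPM in WT and 542, 212 and 15.1 CPM in LC3b-/- (log2 fold change 6.69, SE 1.40). For both genes LC3b-/- M was the lowest of its group and still above the highest WT library, by 8.71 times for Nccrp1 and 2.18 times for Asprv1.

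The precursor genes Sprr1a and Ivl were scarce in WT, and Ivl was scarce in LC3b-/- as well. Sprr1a, a small proline-rich protein, had 3, 4, 0 and 13 counts in WT and 377, 978 and 18 counts in LC3b-/-; it was the only one of the 40 genes that was highest in LC3b-/- F3. Ivl, which encodes involucrin, had 1, 0, 2 and 6 counts in WT and 45, 63 and 14 counts in LC3b-/-, which is 0.413 to 1.81 CPM. With so few counts, the log2 fold changes of 6.15 (SE 1.37) for Sprr1a and 3.87 (SE 0.97) for Ivl carry a wide counting error.

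Other members of this group were found at moderate levels. Sfn, which encodes the epithelial 14-3-3 sigma, had 2.28 to 47.7 CPM in WT and 73.2 to 651 CPM in LC3b-/-. S100a14, a calcium-binding protein of epithelia, had 0.0749 to 18 CPM and 26.2 to 221 CPM. Lypd3, a GPI-anchored protein of suprabasal keratinocytes, had 0 to 16.7 CPM and 18.8 to 170 CPM. Lgals7, the galectin of stratified epithelia, was low in both genotypes, at 0 to 2.53 CPM in WT and 3.04 to 14.3 CPM in LC3b-/-.

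Promoters were examined for letters that the choice of genes did not use, because several of the late genes sit together in the genome. Ivl and Sprr1a lie 85.0 kb apart on chromosome 3, with Sprr1b a further 44.3 kb away, in the cluster known as the epidermal differentiation complex. In the 250 bases before the canonical start of each gene, the letters TATAAA (either strand) were found in 7 of 42 genes (16.7%) and in 11.9% of 21757 protein-coding genes. On the gene's own strand and 20 to 40 bases before the start, a window chosen after positions had been seen, TATAAA was found in 6 of 42 genes (14.3%), against 2.38% of all. Those 6 promoters are shown because they belong to envelope, mucin and hemidesmosome genes described here, and Sprr1b is shown although it had no counts. Capitals mark TATAAA, and each line ends at the base before the start (GRCm39, 80 bases, written on the gene's strand).
Ivl (chr3:92481043-92481122, minus strand): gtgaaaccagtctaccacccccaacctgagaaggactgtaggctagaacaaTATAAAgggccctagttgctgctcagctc
Sprr1a (chr3:92393209-92393288, minus strand): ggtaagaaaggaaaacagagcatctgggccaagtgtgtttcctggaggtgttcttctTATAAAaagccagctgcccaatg
Sprr1b (chr3:92346097-92346176, minus strand): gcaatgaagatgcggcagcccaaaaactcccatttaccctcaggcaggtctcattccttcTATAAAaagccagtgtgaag
Muc21 (chr17:35937530-35937609, minus strand): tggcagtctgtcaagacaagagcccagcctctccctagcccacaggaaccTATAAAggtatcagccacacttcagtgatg
Muc1 (chr3:89136274-89136353, plus strand): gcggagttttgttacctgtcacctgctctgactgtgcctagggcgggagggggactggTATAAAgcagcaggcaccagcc
Col17a1 (chr19:47680534-47680613, minus strand): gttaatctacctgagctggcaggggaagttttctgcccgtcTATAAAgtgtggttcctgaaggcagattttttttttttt

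In these sequences the first base of the box lies 20 (Sprr1b) to 39 (Col17a1) bases before the start. The genes differ in level, from no counts for Sprr1b and a mean of 0.66 CPM per kb of transcript for Ivl in LC3b-/- to 23.1 for Muc1 and 30.7 for Col17a1. Other motifs, not all of them reported here, were searched on both strands of the same 250 bases. CCACCC, bound by KLF factors, was in 52.4% of the 42 promoters and 28.6% of all, and CCCGCC in 45.2% and 35.7%. GGAAGT, the ETS core, was in 21.4% and 19% and CANNTG, the E-box, in 71.4% and 64.8%. GC content had a median of 56.8% in the 42 promoters and 53.2% in all. A match is no binding site, and genes that lie close together or share a family do not give independent matches.

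Transcription factors and a splicing regulator of stratified epithelia make up the next group of 8, with a median log2 fold change of 3.23. Trp63, whose product p63 keeps basal cells, had 6.7, 4.81, 0.562 and 11 CPM in WT and 42.4, 11.9 and 11.6 CPM in LC3b-/-. Its LC3b-/- F3 and M values were close to WT M1, and the log2 fold change of 1.92 (SE 0.85) was the smallest of this group. Grhl3, a grainyhead-like factor of barrier formation, had 42, 30, 1 and 46 counts in WT (0.0374 to 1.77 CPM) and 1267, 1137 and 265 counts in LC3b-/- (7.83 to 51.0 CPM). It had the largest log2 fold change of the group (4.76, SE 0.94), and Grhl1, its family member, had 3.82 to 7.96 CPM in WT and 12.1 to 63.2 CPM in LC3b-/- (2.57, SE 0.55).

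Among epithelial ETS factors, Elf3 had 17.0, 10.4, 2.17 and 17.3 CPM in WT and 301, 206 and 22.9 CPM in LC3b-/-. Ehf had 0.0749 to 16.6 CPM in WT and 22.6 to 158 CPM in LC3b-/-. Klf5, a Krüppel-like factor of the cornea and conjunctiva, was highest among WT in F1 (16.3 CPM) and had 30.1 to 112 CPM in LC3b-/-. Ovol1, a zinc finger repressor that acts as cells leave the basal layer, had 52, 8, 1 and 32 counts in WT and 498, 530 and 150 counts in LC3b-/-. Esrp1, the splicing factor of epithelial isoforms, overlapped between groups, with 0.15 to 12.5 CPM in WT and 11.7 to 92.6 CPM in LC3b-/-.

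Of the 5 adhesion and tight junction genes, 4 had higher and 1 had lower means in LC3b-/-. Cdh1 (E-cadherin, the adherens junction cadherin of most epithelia) had 14, 8.95, 0.15 and 23.1 CPM in WT and 225, 94.5 and 26.5 CPM in LC3b-/-. Epcam, an epithelial adhesion molecule, had 0.262 to 4.46 CPM in WT and 6.41 to 39.3 CPM in LC3b-/-. Cldn4, a sealing claudin, had 37.6, 16.3, 0.112 and 32.4 CPM in WT and 539, 358 and 42.4 CPM in LC3b-/-, and the 3 counts in WT F3 contrast with 1285 in WT F1. Cldn7 had 1.98 to 14.3 CPM in WT and 14.1 to 169 CPM in LC3b-/-, where LC3b-/- M was just below WT M1.

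Cldn1 ran the other way. This claudin of the epidermal barrier stood at 280, 246, 344 and 459 CPM in WT and at 129, 146 and 257 CPM in LC3b-/- (log2 fold change -0.91, SE 0.31). LC3b-/- M lay above WT F2, so the groups overlapped. Per kb of transcript, its mean WT level of 102 CPM was among the 3 highest of the 42 genes, with Gsta4 at 156 and Aldh3a1 at 129. Its order within LC3b-/- was M, F3, F1 from high to low, the reverse of the order of 36 other genes and the order of the summed RPE markers. Trp63, its nearest gene among the 42 at 465 kb on chromosome 16, had the order F1, F3, M.

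Membrane mucins, the glycoproteins of the glycocalyx on wet surfaces, had the largest differences of any group (median log2 fold change 5.75 over the 3 that were tested). Muc4 had 17.6, 8.87, 0.262 and 15.1 CPM in WT and 1006, 636 and 51.7 CPM in LC3b-/- (log2 fold change 5.75, SE 1.36). Muc1 had 5.18, 3.07, 0.262 and 1.92 CPM in WT and 81.5, 67.5 and 6.76 CPM in LC3b-/- (4.30, SE 1.03). Muc21 had 5, 9, 1 and 77 counts in WT (0.0374 to 2.96 CPM) and 3783, 2889 and 138 counts in LC3b-/- (4.08 to 152 CPM; 6.46, SE 1.52). All of these were much lower in LC3b-/- M than in the LC3b-/- females, and the 250 bases before Muc1 and Muc21 end with the TATAAA stretches shown above. Muc4 shares 240 bases at 99.6% identity with its neighbor Muc20, so their reads could have been split.

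Genes of corneal and conjunctival epithelium that are no junction or envelope proteins had their highest levels in WT M1 and LC3b-/- F1. Aldh3a1, an aldehyde dehydrogenase that is a major soluble protein of the cornea, had 57.8, 74.4, 3.59 and 787 CPM in WT and 2459, 145 and 157 CPM in LC3b-/-. LC3b-/- F3 and M were both below WT M1, and without LC3b-/- F1 the log2 fold change was -0.62, against 2.0 (SE 1.63) with it. Aqp5, a water channel of cornea and glands, had 11, 74, 4 and 1542 counts in WT and 7859, 1060 and 360 counts in LC3b-/-. Its log2 fold change of 2.91 (SE 1.91) ran from 0.24 without LC3b-/- F1 to 6.69 without WT M1. Gsta4, a glutathione transferase that conjugates lipid peroxidation products, was abundant in all mice at 271 to 458 CPM in WT and 440.2 to 1501 CPM in LC3b-/- (1.27, SE 0.47).

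Hemidesmosome genes anchor basal cells to the basement membrane. Col17a1, a transmembrane collagen of hemidesmosomes, had 19.1, 19.9, 0.974 and 142 CPM in WT and 380.3, 75.6 and 59.3 CPM in LC3b-/- (log2 fold change 1.91, SE 1.32). As for Aldh3a1 and Aqp5, the libraries WT M1 and LC3b-/- F1 were the highest of their groups by far. Itgb4, the integrin beta 4 subunit, had 52.8, 26.4, 7.26 and 37.5 CPM in WT and 136, 63.5 and 45.0 CPM in LC3b-/- (1.39, SE 0.63). Itgb4 shares 468 bases at 99.1% identity with its neighbor Galk1, and shorter or longer matches of this kind were found for Dsp (Gm10129), Sfn (Gm7850), Cldn7 (Elp5), Ovol1 (1810058N15Rik), Elf3 (Gm26642) and Lypd3 (Gm26550).

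**Figure D2:**
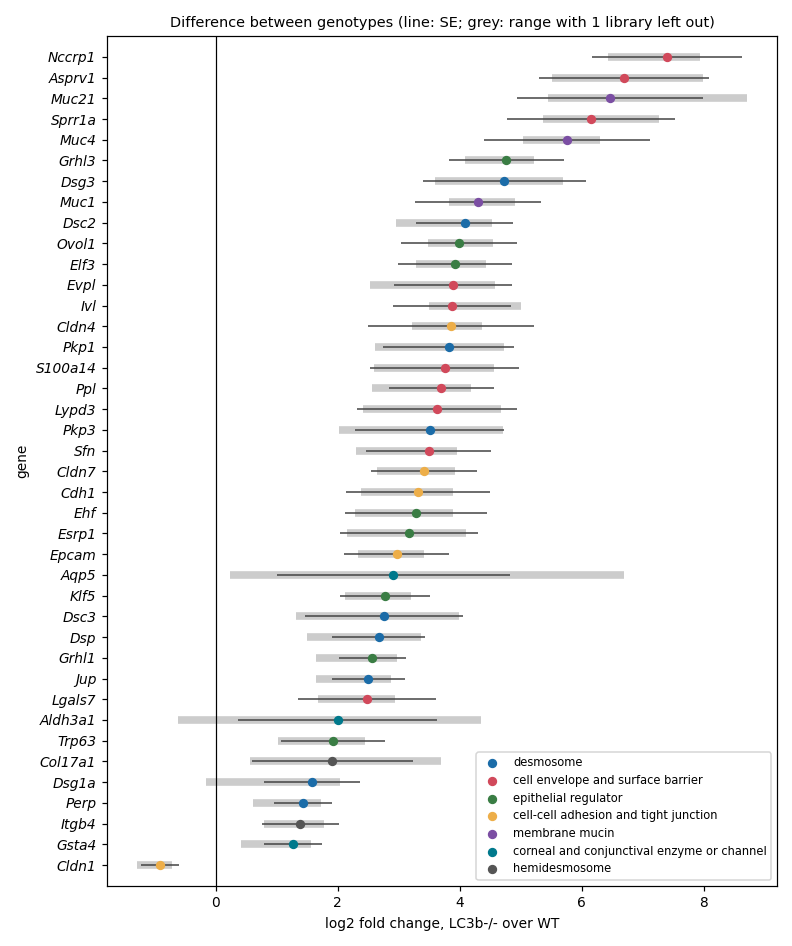
Log2 fold change of LC3b-/- over WT (x axis) for the 40 genes tested, ordered by size; points are colored by role, dark lines give 1 SE and grey bars the range when each library was left out in turn. All points but Cldn1 are right of 0, and the grey bars of Dsg1a and Aldh3a1 cross 0.

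The 4 WT mice were then compared with each other, which the choice of genes by genotype does not directly fix. The genes were still chosen as parts of stratified epithelia and with earlier results of these data known. They are therefore not independent of each other, and the shares over all genes are given for scale only. Because 4 libraries are too few for a correlation, the order of the libraries was counted for each gene. WT M1 was the highest WT library for 31 of 40 genes, against 27.5% of all genes tested, and WT F3 was the lowest for 35 of 40, against 21.2%. No gene had WT F3 as its highest library or WT F1 or M1 as its lowest. The single order M1, F1, F2, F3 from high to low held for 18 of 40 genes, against 2.98% of all genes. Only 7 of the 24 possible orders occurred, and the next in number were M1, F2, F1, F3 in 8 genes (2.05% of all) and F1, M1, F2, F3 in 5 genes (4.44%).

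No single order went through all functional groups. The commonest was absent from the membrane mucins, the hemidesmosome genes and the corneal and conjunctival enzymes and channel. The order M1, F1, F2, F3 was that of Dsg3, Dsc2, Dsc3, Pkp1, Pkp3, Jup and Perp of the desmosome, of Ppl, Evpl, Sfn and S100a14 of the envelope and surface, of the regulators Trp63, Ehf, Elf3 and Esrp1, and of Cdh1, Epcam and Cldn7. Genes with M1 first and F2 second were Grhl3, Muc21, Asprv1, Sprr1a, Lypd3, Aqp5, Aldh3a1 and Col17a1. Those with F1 above M1 were Grhl1, Klf5, Ovol1, Cldn4, Muc1, Muc4 and Itgb4. Lowest in WT F2 and not in F3 were Dsg1a, Dsp, Cldn1, Ivl and Gsta4, of which Dsp, Cldn1 and Gsta4 had 60.9 CPM or more in every WT library. Nccrp1 and Lgals7 had the order F2, M1, F1, F3. No more than 64 counts in any WT library stand behind the orders of Nccrp1, Lgals7, Ivl, Sprr1a, Grhl3 and Ovol1.

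From the highest to the lowest WT library the genes spanned a median of 3.96 on the log2 scale, against 0.63 over all genes tested. The level in WT F3 differed from the mean of the other WT libraries by a median log2 of -3.22, and 13 genes had 3 counts or fewer there (Dsg3, Dsc3, Grhl3, Ehf, Ovol1, Cldn4, Muc21, Nccrp1, Sprr1a, Ivl, Lypd3, Lgals7 and S100a14). Such counts were found for 2 genes in WT F1, for 1 in WT F2 and for none in WT M1 or the LC3b-/- libraries. WT M1 differed from the mean of the other WT libraries by a median log2 of 1.97, and all 40 genes were above that mean. When only the 20 genes with at least 10 counts in every WT library were kept, the order M1, F1, F2, F3 held for 10.

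Among the marker sums, that of the keratins was highest in WT M1 and lowest in WT F3 as well, and the others were ordered differently. The sum of RPE markers was highest in WT M1 (49203 CPM) and next highest in WT F3 (38723 CPM). Photoreceptor markers were lowest in WT M1 (275 CPM) and highest in WT F2 (20735 CPM), fibroblast markers were lowest in WT F3 (297 CPM) and highest in WT F1 (1235 CPM), and endothelial markers were lowest in WT M1 (132 CPM). The part of these other cells in the orders was not tested. WT M1 is the only WT male, so its sex and its mouse cannot be told apart.

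**Figure D3:**
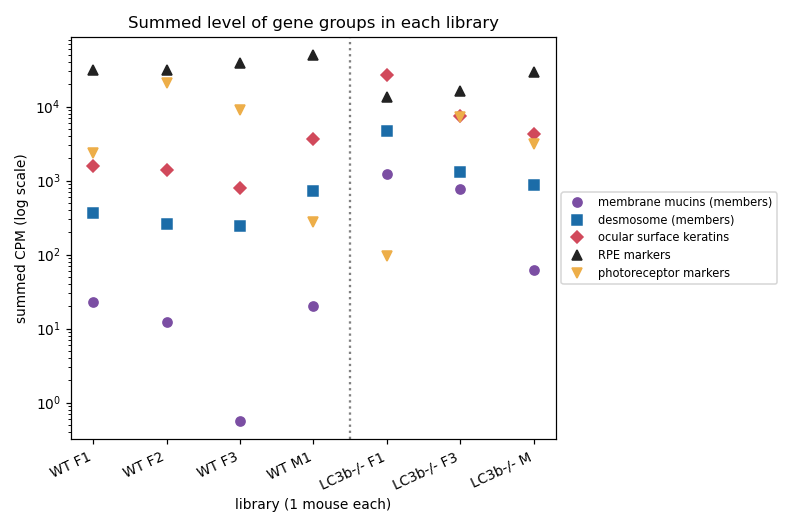
Summed CPM (log scale) of the 9 desmosome genes, the 4 membrane mucins, 14 ocular surface keratins, 10 RPE markers and 10 photoreceptor markers in each library. Mucins are at 0.562 CPM in WT F3 and at 1239.9 CPM in LC3b-/- F1, where keratins exceed RPE markers, and photoreceptor markers are lowest in that library and in WT M1. The keratin sum in WT F3 is nearly all Krt8 and Krt18.

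The LC3b-/- mice also formed 1 order. LC3b-/- F1, F3 and M followed each other from high to low for 36 of 40 genes, against 18.9% of all genes tested. The exceptions were Dsc3 and Aldh3a1 (F1, M, F3), Sprr1a (F3, F1, M) and Cldn1 (M, F3, F1). The span from highest to lowest was a median log2 of 3.03, against 0.55 over all genes. Relative to the WT mean, the genes had a median log2 difference of 5.28, 3.69 and 2.10 in F1, F3 and M, against 0.02 to 0.04 over all genes. LC3b-/- F1 was above the highest WT library for 39 genes, LC3b-/- F3 for 33 and LC3b-/- M for 28. Shares over all genes were not computed for these counts, which restate the contrast that chose the genes, and nothing is read from them. The median of the 40 log2 fold changes was 2.36 without LC3b-/- F1, 3.10 without WT F3 and 1.96 without both (added after the data had been seen).

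Mice of the same sex were set side by side. LC3b-/- M had a median of 1.35 times the level of WT M1 and was above it for 29 of 40 genes, from 0.179 times for Aqp5 to 8.71 times for Nccrp1. The median over all genes was 1.04. For the female pair LC3b-/- F3 and WT F1 the median ratio was 7.54 over 38 genes, of which 36 were above 1 and Dsg1a and Cldn1 below, against 0.962 over all genes. Each of these ratios compares 1 mouse with 1 mouse and has no test. Other pairs of females were not set side by side. Levels differed widely among females of 1 genotype, so the female ratio depends on the pair taken. The male and female ratios are therefore not compared with each other. With sex as a covariate, the median of the 40 log2 fold changes was 3.69.

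The proportions between mice were not the same for all genes, and roles were not tested against each other. The ratio of LC3b-/- F1 to LC3b-/- F3 had a median of 2.76 over the 40 genes and that of WT M1 to WT F1 a median of 1.64 over the 38 with enough counts. Desmosome genes had group medians of 4.0 and 2.43, and envelope genes 2.73 and 2.17. Mucins had 1.58 and 0.855, although their ratios of WT M1 to WT F1 ran from 0.371 for Muc1 to 20.2 for Muc21. Aqp5 had ratios of 11.9 and 184 (the latter over 11 counts in WT F1), Aldh3a1 17.0 and 13.6, and Col17a1 5.03 and 7.46. These were above the group medians of desmosome and envelope genes in both ratios. So were the desmosome genes Dsc3 (6.67 and 3.53), Pkp3 (4.48 and 3.75) and Dsp (4.16 and 2.8). Gsta4 and Itgb4, listed under the same roles as Aqp5, Aldh3a1 and Col17a1, differed from those genes, with 3.38 and 1.45 for Gsta4 and 2.13 and 0.71 for Itgb4. Muc1 had the lowest ratio of WT M1 to WT F1 (0.371) and a ratio of 1.21 between the LC3b-/- females. Krt12 followed Aqp5 and Aldh3a1, at 0.0878 CPM (only 3 counts) in WT F1 and 2.41 CPM in LC3b-/- F3 against the values above in WT M1 and LC3b-/- F1.

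**Figure D4:**
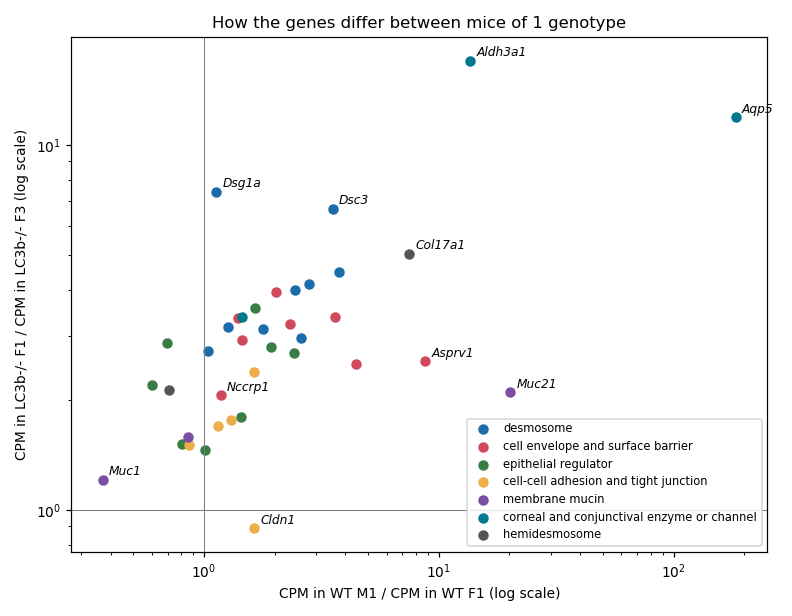
Ratio of CPM in WT M1 to WT F1 (x axis) and in LC3b-/- F1 to LC3b-/- F3 (y axis) for the 38 genes with enough counts, both on log scales, colored by role; grey lines mark equal levels. Aqp5, Aldh3a1 and Col17a1 lie toward the upper right, Muc1 at the lower left, and Cldn1 below the line of equal levels in LC3b-/- F1 and F3.

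The mean profile of the 40 genes over the 7 libraries was used to find the other genes most like it, by the mean absolute distance in log2 CPM after each gene was centered. Of 14872 candidates with a mean of at least 1 CPM and a median distance of 1.82, the nearest were Tmem40 (0.24), Cblc (0.25), Ankrd22 (0.26), AI661453 (0.27), Rhov (0.28), Liph (0.31), Hsd17b2 (0.31), Erbb3 (0.33), Bicdl2 (0.33) and Fam83b (0.33). The 40 genes themselves had a median distance of 0.73, with Sfn nearest (0.22), then Epcam and Evpl (0.34 each), and Cldn1 (2.22), Nccrp1 (1.48) and Muc21 (1.39) farthest. AI661453, for example, stood at 10.1, 5.3, 1.05 and 21.6 CPM in WT and at 282, 119 and 23.3 CPM in LC3b-/-. All libraries of this study enter these distances, the contrast that chose the genes included.

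Other genes of the same structures were taken from 6 lists of 130 genes that are no members of the 42. Of these, 54 passed the filter on low counts, 46 lay higher in LC3b-/- by log2 fold change, and edgeR called none in either direction. Without adjustment, 34 had p under 0.05 as higher and 3 as lower, and DESeq2 called 29 of the 54 higher and 2 lower. The 3 lower genes, named after their values were seen, were Muc3a, Cldn22 and Cldn34c1. Background shares are those given for the 42 genes. Some of the 54 genes passed the filter only with libraries of the group where they were high, so their direction was not free of it.

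Of the epithelial regulators outside the 42, all 14 tested had higher means in LC3b-/- (median log2 fold change 2.60) and 12 had an unadjusted p under 0.05. Elf5 and Ovol2, 2 of the 14, had too few counts in WT to pass the filter without their LC3b-/- libraries. Their direction was therefore not free of the filter. The 3 regulators with the highest mean CPM had the smallest log2 fold changes. Klf4, a factor of barrier formation also made by other cells, had a log2 fold change of 1.13 (SE 0.35; edgeR adjusted p 0.128), Ets2 1.19 (SE 0.27; adjusted p 0.0951) and the serine protease inhibitor Spint2 0.29 (SE 0.23; adjusted p 0.461). Envelope genes had 5 tested of 47 (median 4.00), of which Sprr2a2, Tgm5 and Spink5 had low counts in WT and passed the filter through their LC3b-/- libraries, and 26 had no count in any library, such as Lce1a1, Flg2 and Sprr3. Spink5, an inhibitor of skin proteases, had a log2 fold change of 5.44 (SE 1.51; adjusted p 0.108), Tgm1, a crosslinking transglutaminase, 1.81 (SE 0.71; adjusted p 0.182) and Tchh, the hair follicle protein trichohyalin, 0.26 (SE 0.31; adjusted p 0.636).

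The lists of other desmosome and tight junction genes hold genes that simple epithelia use as well. Pkp2, the plakophilin of heart and simple epithelia, had 13.9 to 18.8 CPM in WT and 17.4 to 19.8 CPM in LC3b-/- (log2 fold change 0.12, SE 0.14), and Pkp4 had 146 to 345 CPM and 124 to 247 CPM (-0.30, SE 0.33). Dsg2, the desmoglein of simple epithelia, had 5.59 to 10.2 CPM in WT and 54.5, 40.6 and 7.35 CPM in LC3b-/- (2.21, SE 0.58). The desmosome list had 4 genes tested of 8 and a median of 0.93. Tight junction genes had 19 tested of 41 and a median of 0.63, with 9 at p under 0.05 as higher and 2 as lower. The scaffold proteins Tjp1 and Cgn had log2 fold changes of 0.63 (SE 0.26) and 0.33 (SE 0.29).

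Hemidesmosome and laminin-332 genes were all tested (8 of 8) and had a median of 1.33, with 5 at p under 0.05 as higher. The linker proteins Dst and Plec had log2 fold changes of 0.37 (SE 0.22) and 1.23 (SE 0.34), and the tetraspanin Cd151 had 0.22 (SE 0.15). Mucins had 4 tested of 11 and a median of 2.39. Muc20 (4.84, SE 1.10) and Muc15 (3.20, SE 0.85), both membrane mucins, were higher. Muc3a had 1.79, 2.36, 3.15 and 0.615 CPM in WT and 0.161, 0.125 and 0.384 CPM in LC3b-/- (-3.12, SE 0.71; edgeR adjusted p 0.0945). With 4, 5 and 13 counts in LC3b-/-, Muc3a passed the filter on low counts only through its WT libraries. Its direction was therefore not free of the filter.

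**Figure D5:**
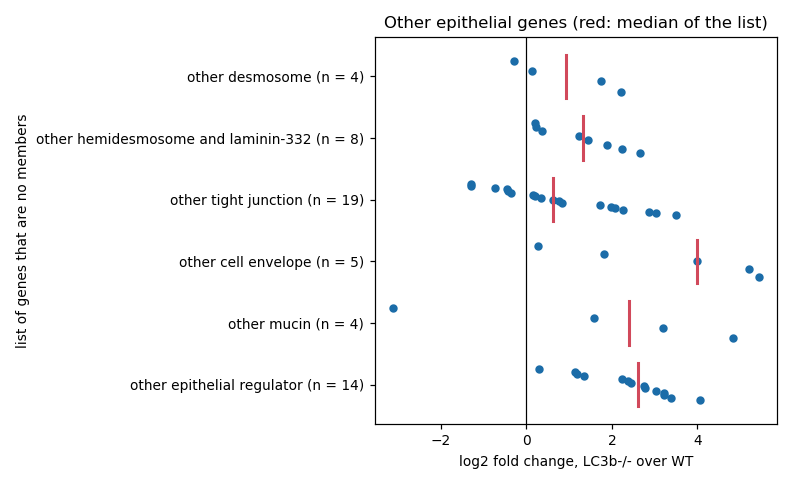
Log2 fold change of LC3b-/- over WT (x axis) for the 54 genes tested of 6 lists (y axis) that are no members of the 42; each point is a gene and red bars are list medians. Medians are 0.63 for tight junction genes and 4.00 for the 5 cell envelope genes that passed the filter, and Muc3a is the point farthest left.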

How the data were processed

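RNA of RPE was sequenced from 4 WT and 3 LC3b-/- mice, and 1 library per mouse was taken as the replicate. The authors quantified the reads with salmon on GENCODE vM26 transcripts (GRCm39) and brought the estimates to gene level with tximeta. The deposited values are estimated counts per gene, in whole numbers and unscaled; all 7 columns were used (0 unused). The salmon options are not given in the sources used here. Symbols, transcript lengths and starts come from GENCODE vM39 on the same build.

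Tests used edgeR 4.0.16 in R 4.3.3, with filterByExpr (16990 of 28835 genes with a count kept), TMM and the quasi-likelihood test without covariates, with Benjamini-Hochberg adjustment (biological coefficient of variation 0.398). A gene was called at a fold change of 1.5 or more with an adjusted p under 0.05. Log2 CPM used a prior count of 2. DESeq2 1.42.0, DESeq2 size factors, no filter, sex as covariate, a replicate block and each library left out were alternatives. Near-identical copies were found with BLAST 2.17.0; figures were drawn with matplotlib 3.10.9. The code was tested on simulated data.

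The 42 genes, the 6 lists of other genes and the 8 marker lists (ocular surface keratins, RPE, photoreceptor, goblet cell, lens, fibroblast and keratocyte, endothelium, macrophage) were chosen with earlier results of these data known. Named are all 42 genes, of each other list those called and the 3 with the highest mean CPM, and the 10 genes of at least 1 CPM nearest to the mean profile; others are said to be chosen afterwards. A gene that the rule names and a promoter sequence are not reported here.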

Additional observations from a re-analysis of the deposited data

Results flagged for a closer look

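Among the 4 WT libraries, a library stood farther from the others than Dixon's critical value for 4 samples (gap to the nearest library over the range, on log2 CPM) for 5 of the 40 genes tested and for 1 group sum. Chance alone gives about 1 in 20 for independent genes, whereas these genes share their orders in WT. WT F3 was the low library for Grhl3 (0.879), Epcam (0.865) and Cldn4 (0.844), and for the summed membrane mucins (0.832), which stood at 0.562 CPM there and at 12.3 to 22.9 CPM in the other WT libraries. Grhl3 and Cldn4 had 1 and 3 counts in WT F3, so their values depend on the prior count of 2. For Dsg1a the low library was WT F2 (0.887), with 7.25 CPM against 18.5 to 20.8 CPM. For Perp the high library was WT M1 (0.859), with 229 CPM against 117 to 129 CPM.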

How the results depend on the processing

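The median log2 fold change of the 40 genes stayed between 1.96 and 4.14 under all alternatives, and 38 of the 40 kept their sign over 12 of them; Dsg1a and Aldh3a1 did not. Counts of calls depended on the setting. Over all genes, edgeR called 40; DESeq2 called 1813, no filter gave 78, sex as a covariate 197, and leaving out 1 library 11 to 485. Of the 42 genes edgeR called 0 (31 higher and 1 lower at an unadjusted p under 0.05), DESeq2 called 23, no filter gave 1, sex as a covariate 1 and leaving out 1 library 0 to 11, with 11 only without LC3b-/- M.

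In the other lists edgeR called 0, and DESeq2, which also tested genes below edgeR's filter, called 4 cell envelope, 1 desmosome, 10 regulator, 5 hemidesmosome, 4 mucin and 9 tight junction genes. Leaving out 1 library gave 0 to 2 cell envelope, 0 to 1 desmosome, 0 to 2 regulator, 0 to 1 hemidesmosome, 0 to 2 mucin and 0 to 5 tight junction genes, all above 0 only without LC3b-/- M; sex as a covariate gave 1 tight junction gene. With at least 10 counts in every WT library the commonest WT order held for 10 genes of 20, against 18 of 40. The cause was not tested beyond the fewer libraries or genes.

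With the mouse name as a replicate block, edgeR called 1 gene over all genes and 0 of the 42. For this block WT M1 and LC3b-/- M were treated as having the same name. Deviations of the genes from their group mean correlated only weakly between same-named mice, with r 0.146 for F1, 0.243 for F3 and -0.172 for M. The names were therefore not taken as pairs.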
